A study of Mus musculus with 55 samples.

Results

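IL-72 is a line of the Collaborative Cross (CC), a panel of recombinant inbred mouse lines that descend from 8 founder strains, so that mice of a line share nearly all of their genome while lines differ at loci across it. The livers of its 2 mice, chosen by the strain label, were compared with those of the 53 mice of the 28 other lines, out of 55 mice of 29 lines in all. A gene was counted as outside the range when both IL-72 mice lay above, or both below, every other mouse in the deposited FPKM, a level scaled for transcript length and library size, among genes that reached 2 FPKM in at least 1 mouse. Both IL-72 mice were 9.4 weeks old and weighed 23.0 and 24.0 g, and the others were 8 to 11.9 weeks old and weighed 12.8 to 38 g. All were untreated males with free access to chow and water under a cycle of light and dark. The labels give neither the founder haplotypes nor the time of dissection, and all differences below are those of 1 line, of which these 2 mice are the only samples.

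The liver makes most plasma proteins, turns over sugars, lipids and amino acids, and clears foreign compounds. Its transcriptome follows the daily clock, feeding and inflammation as well as genotype. Inherited differences act on it in part through variants close to a gene, which can shift the level of a single gene or of neighbours on the same chromosome, and in part through regulators that act on distant genes.

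The livers of IL-72 held their own pattern in a small set of genes. Of 11284 genes tested, 102 lay above the range (0.904% of those tested) and 17 below it (0.151%). Galt, Ppard and Il11ra1 were among the leading genes above, and Bhmt, Npr2 and Ube2l6 were among the leading genes below. Most members exceeded the range by little. The IL-72 mouse nearer to the range was within 10% of the nearest other mouse (FPKM + 0.5) for 65 of the 102 genes and for 9 of the 17, and only 5 and 1 genes were separated by 1.5 times or more. Among the 15 other lines with 2 mice, the same rule gave between 0 and 389 genes above (median 73) and between 2 and 554 below (median 33). IL-72 ranked 6th of these 16 lines by its total of 119 genes, and IL-2146 had the most, 943. With 29 lines, the smallest two-sided exact permutation p that a single line can reach is 0.069, so the counts carry no test. The mice labelled IL-1052 and IL-2750 did not group by label. The 2 mice labelled IL-1052 had a Spearman correlation of 0.931 with each other, while 1 of them had 0.977 and 0.976 with 2 mice labelled IL-2750 and the other 0.968 with the remaining mouse of that label. Without both lines the counts were 107 above and 20 below.

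**Figure D1:**
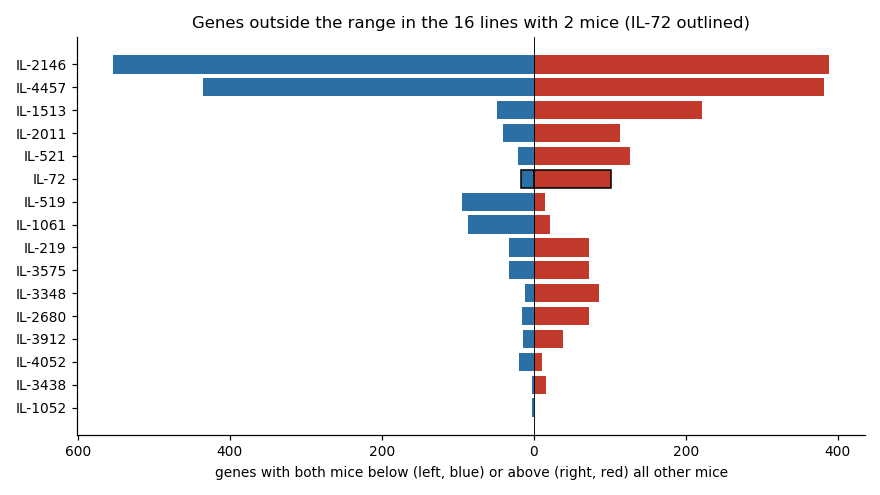
Number of genes with both mice of a line above (red, right) or below (blue, left) all mice of the other lines, for the 16 lines with 2 mice. IL-72, outlined, has 102 genes above and 17 below, the 6th highest total of the 16 lines.

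The 2 libraries were of similar depth, 22.2 and 22.0 M estimated fragments over genes, against 20.5 to 34.0 M in all mice. They ranked 6th and 5th from the lowest. Their Spearman correlation across the genes tested was 0.9902, the second highest of 31 pairs of line mates, against 0.871 to 0.953 with mice of other lines. They still differed by far more than counting noise (chi-square of 42.3 per gene over 10554 genes), so they were kept as 2 samples. Markers of hepatocytes summed to 43500 and 48063 FPKM, within 17925 to 69674 in the others, and 1 of 7 passed the test higher and 1 lower. The 6 erythroid markers all had a positive difference and 3 passed with edgeR (0 without either IL-72 mouse), and their sum was 2537 and 2613 FPKM against a median of 1361 and a highest value of 4529 in the others. Marker sums of Kupffer cells, neutrophils, stellate cells and cholangiocytes also lay within the range of the others. With edgeR, 2 of 6 cholangiocyte, 1 of 10 Kupffer cell and 1 of 5 neutrophil markers were higher, and 1 of 8 stellate cell markers lower. Of 4 adipocyte markers 3 were at 0 in both IL-72 mice. Their sum, 0.05 and 0.32 FPKM, was not below the median of the others (0.05, highest 20.1). The part of cell composition in the results was not tested, and in bulk livers fewer cells of a type cannot be told apart from less RNA per cell.

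Several of the leading genes lie close together on chromosome 4 (build mm9). They include Il11ra1 (41647021 to 41716347), the receptor chain that binds interleukin-11, 2810432D09Rik, whose RefSeq symbol is Rpp25l, Dctn3, a subunit of the dynactin complex of dynein motors, and Galt, the galactose-1-phosphate uridylyltransferase of galactose breakdown. In each of them both IL-72 mice lay above every other mouse.

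Galt (41702101 to 41705568, plus strand) had 76.5 and 64.1 FPKM in IL-72 and 16.9 to 36.5 in the others, with a median of 26.3. The groups did not overlap, and the lower IL-72 mouse was 1.76 times the highest other mouse. By line, IL-72 had 70.3 ± 8.75 FPKM (SD, n = 2), followed by IL-3575 with 33.7 ± 4.03 (SD, n = 2). The edgeR difference between IL-72 and the mean of the 28 other lines was 1.40 on the log2 scale (SE 0.10, adjusted p = 2.77e-11). Genes outside the range were chosen on these same 2 mice, so their edgeR p-values, here and below, add no separate support. All 100 genes above and all 17 below that edgeR tested passed in the same direction. Il11ra1 had 31.9 and 32.8 FPKM against 9.11 to 21.1, and Dctn3 had 32.6 and 35.4 against 12.4 to 23.9. For 2810432D09Rik the IL-72 mice had 19.4 and 24.6 FPKM, where the highest other mouse had 17.1. The log2 differences of Il11ra1, Dctn3 and 2810432D09Rik were 1.33, 0.95 and 1.013 (adjusted p of 3.27e-09, 7.27e-10 and 2.07e-07).

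Of the neighbours, Enho and Ccl27a were higher in IL-72 by their line mean without lying outside the range. Enho, which encodes the secreted peptide adropin and whose lowest coordinate lies 117 kb before that of Galt, had 38.5 and 56.2 FPKM, and the highest other mouse had 42.5. Ccl27a, a chemokine 14.2 kb after Galt, had 9.54 and 7.83 FPKM against up to 8.58. IL-72 had the highest line mean in both genes, but single mice of the groups overlapped. Cntfr, a receptor chain for ciliary neurotrophic factor between Enho and Il11ra1, was low in all mice, with 0.33 and 0.29 FPKM in IL-72 and a median of 0.31 in the others. Gm13305, 327 kb after Galt, had 9.80 and 8.24 FPKM while the median of the others was 0.19, yet 14.5 FPKM was reached in IL-2011. Gm2002 lay above the other mice with 1.60 and 1.84 FPKM against up to 1.33, below the 2 FPKM needed for the test. Genes of this stretch overlap or have near copies. Il11ra1 as annotated spans Dctn3, Galt and 2810432D09Rik, on both strands. The kit keeps strand, but the counting was run with default settings, under which RSEM does not use it, so fragments of overlapping genes may have been shared out between them.

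**Figure D2:**
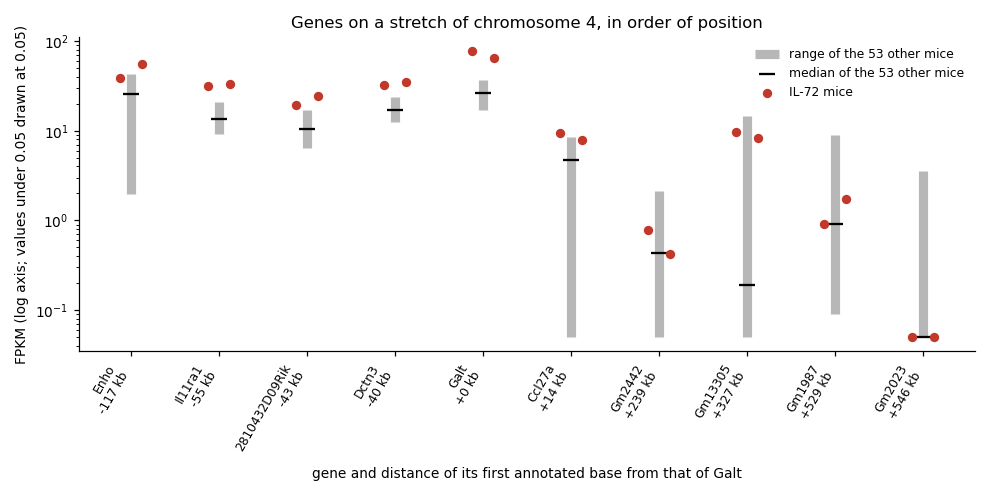
FPKM (log axis) of genes on a stretch of chromosome 4 where another mouse reached 2 FPKM, in order of position, with the distance of each first base from that of Galt. Red points are the 2 IL-72 mice, grey bars the range and black marks the median of the 53 other mice. For Il11ra1, 2810432D09Rik, Dctn3 and Galt both IL-72 mice lie above the grey bar.

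The isoform ratios of these genes mostly stayed within the range. The main isoform of Galt, ENSMUST00000084695, took 57.7% and 58.8% of the gene's expression in IL-72, within 36.0% to 79.6% in the others. In Il11ra1, ENSMUST00000108040 took 14.6% and 15.1%, where the median of the others was 0% and the highest 30.7%. A minor isoform of Il11ra1, ENSMUST00000145445, was above the range with 2.56% and 2.47% against up to 1.87%.

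Ppard, a nuclear receptor that senses fatty acids (chromosome 17, 28369699 to 28438414, plus strand), was among the genes with the largest separation above the range. It had 6.19 and 5.65 FPKM in IL-72 against 0.68 to 2.97 in the other mice, with a median of 1.17. IL-72 averaged 5.92 ± 0.38 FPKM (SD, n = 2), and the next line, IL-2011, 2.37 ± 0.85 (SD, n = 2). The log2 difference was 2.31 (SE 0.15, adjusted p = 3.36e-12). Of 29 liver nuclear receptors and regulators tested, Ppard and Rara, a retinoic acid receptor (0.66, adjusted p = 0.00376), passed the test, both higher. That is 6.90% of the list, under the 11.4% of all genes that were higher with edgeR (5.51% were lower), and the median of the list was 0.05.

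When each line counted as a single value, and the spread between lines was the error, 8 of 16140 genes passed, 5 higher (0.0310% of those tested) and 3 lower (0.0186%), and 527 had an unadjusted p under 0.05. Galt and Ppard were among them, with adjusted p (limma on line means) of 0.00273 and 0.00689. Further higher genes were Gm5940, a pseudogene at 0 in 45 of 53 other mice, and Dsg1b, which was under 0.2 FPKM in IL-72. The 3 lower genes were C430014B12Rik, Mrpl48-ps and Gm20547.

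Promoters of the leading genes show the sequence context of these starts. They were taken from RefSeq (build GRCm38.p6, 250 bases before to 50 after a start) and are those of the reference strain, not of the IL-72 haplotype. Capitals mark 3 motifs found on either strand, where overlapping marks run together. The GC box is GGGCGG. The CCAAT box is spelled as named. The E-box searched is CACGTG.
Galt, chr4:41755267-41755566 (+): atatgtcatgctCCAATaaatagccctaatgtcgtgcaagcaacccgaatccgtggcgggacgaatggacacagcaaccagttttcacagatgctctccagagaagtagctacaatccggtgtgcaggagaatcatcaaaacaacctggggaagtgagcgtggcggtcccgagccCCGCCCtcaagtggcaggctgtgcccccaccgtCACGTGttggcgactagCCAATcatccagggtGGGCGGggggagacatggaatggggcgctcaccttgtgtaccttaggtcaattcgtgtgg
Dctn3, chr4:41723114-41723413 (-): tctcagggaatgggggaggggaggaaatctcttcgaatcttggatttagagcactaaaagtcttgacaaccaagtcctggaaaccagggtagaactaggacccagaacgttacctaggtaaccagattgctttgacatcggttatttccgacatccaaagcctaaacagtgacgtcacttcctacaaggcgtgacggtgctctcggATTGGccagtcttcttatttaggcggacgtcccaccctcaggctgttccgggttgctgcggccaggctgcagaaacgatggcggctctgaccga
Ppard, chr17:28232504-28232803 (+): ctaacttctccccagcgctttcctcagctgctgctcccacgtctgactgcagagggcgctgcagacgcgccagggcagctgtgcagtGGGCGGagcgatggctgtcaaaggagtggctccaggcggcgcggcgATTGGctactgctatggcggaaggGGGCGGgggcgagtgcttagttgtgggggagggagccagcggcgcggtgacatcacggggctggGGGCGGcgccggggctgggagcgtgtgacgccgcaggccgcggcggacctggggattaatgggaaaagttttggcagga
The Galt promoter shown has 2 GC boxes, 2 CCAAT boxes and 1 E-box, while the second Galt promoter in the table (chr4:41756012-41756311) has 0 of each. The other promoters shown hold fewer kinds, Dctn3 1 CCAAT box, and Ppard 3 GC boxes and 1 CCAAT box. Of the genes above the range, 66 of 102 matched a promoter, and 49 of these (74.2%) hold a GC box against 38.2% of the 27025 genes in the table. A TATA box (TATAAA) is in 3 of the 66 (4.55%) against 15.7% of all. These are counts of letters, and the genes above the range were GC-rich, as described further on. The 27025 genes include many that were not tested here, so the shares are not set against liver genes alone.

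**Figure D3:**
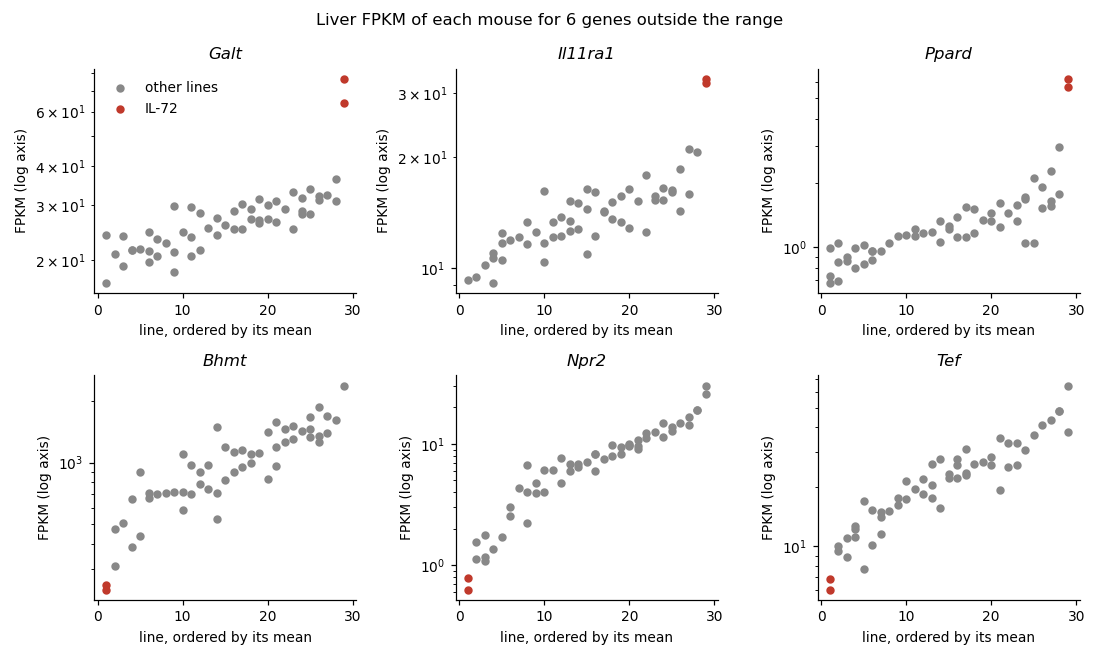
FPKM (log axis) of each mouse for 3 genes above and 3 below the range, with lines ordered on the x axis by their mean. The IL-72 mice (red) stand at the top for Galt, Il11ra1 and Ppard and at the bottom for Bhmt, Npr2 and Tef, with the smallest step from the other mice (grey) for Tef.

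Other genes above the range serve diverse functions. Psen2, a catalytic subunit of gamma-secretase, had 177 and 181 FPKM against 15.04 to 141 in the others, and IL-72 was followed by IL-670 with 129.0 ± 5.66 FPKM (SD, n = 3). Steap3, a metalloreductase of iron uptake, had 13.6 and 14.0 FPKM against 0.57 to 12.1. Wdr86 had 5.12 and 4.63 FPKM where the median of the others was 0.05 and the highest 3.18. Casc4 had 2.68 and 2.25 FPKM against 0.19 to 1.64, and Rasl11b, a Ras-like protein, 1.72 and 2.34 against 0.09 to 1.32. Both passed the minimum of 2 FPKM through IL-72 alone. Slc44a1, a choline transporter, had 32.3 and 28.9 FPKM against 6.21 to 24.4, and Acsl3, which activates long-chain fatty acids, 15.9 and 20.1 against 2.73 to 13.7. Mup21, a major urinary protein, had 1845 and 1586 FPKM, and the highest other mouse, of IL-2750, 1416. In this group the steps to the nearest other mouse were between 1.12-fold for Mup21 and Steap3 and 1.46-fold for Wdr86. Cfb, complement factor B, had 590 and 623 FPKM against 262 to 584, and Hsd3b7, an enzyme of bile acid synthesis, 351 and 336 against 100.3 to 321, so that both sat just beyond the range.

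Of the 102 genes, 92 were protein coding and 6 pseudogenes, shares close to those of all genes tested (90.2% against 92.5%, and 5.88% against 3.66%). In 7 of them, Gm5940, Gm13680 and Gm2810 among them, over 26 of the 53 other mice were at 0. Such copies share fragments with near-identical genes, and their values are uncertain. Also 7 genes, Casc4, Rasl11b and AC073553.1 among them, were under 2 FPKM in every other mouse and entered the test through IL-72 alone. AC073553.1 is in both sets. The ratio of the IL-72 mean to the median of the other line means could be formed for 96 genes, had a median of 1.78 and passed 2 for 40 of them. At the edge of the rule, Cxx1a was just outside with 5.25 and 6.97 FPKM against a highest other value of 5.24. Just inside was Entpd6, where the lower IL-72 mouse and the highest other mouse both had 3.39 FPKM.

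Some partners of Galt in the breakdown of galactose were compared as well. Galk1, the galactokinase before Galt, had 18.6 and 19.5 FPKM in IL-72 and a median of 21.0 in the others, with a log2 difference of -0.16 (adjusted p = 0.617). Galm, Ugp2, Pgm1 and Pgm2 did not pass either. These partners were chosen after their values were seen.

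Bhmt, which methylates homocysteine with betaine, was the most abundant gene below the range. It had 238 and 251 FPKM in IL-72 against 310 to 2390 in the others, with a median of 977. IL-72 averaged 244.4 ± 9.50 FPKM (SD, n = 2), and the next lowest line, IL-4457, 389.7 ± 112.8 (SD, n = 2). The log2 difference was -2.03 (SE 0.35, adjusted p = 0.000107). Of its pathway, again chosen after the values were seen, Dmgdh and Ahcy were lower with edgeR, both within the range of the others. Dmgdh, which breaks down the dimethylglycine that Bhmt makes, had a log2 difference of -0.90 (adjusted p = 0.000215). Ahcy, which releases homocysteine, had one of -1.88 (adjusted p = 0.000126) from the mean of the other lines. Its FPKM was 19.0 and 19.1 against 14.8 to 649.6, and the median of the others was only 32.4. Bhmt2, Chdh, Sardh, Mat1a, Gnmt, Cbs and Mtr did not pass.

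Npr2, the receptor of C-type natriuretic peptide (chromosome 4, 43644807 to 43664116), had 0.63 and 0.79 FPKM in IL-72 and 1.08 to 30.2 in the others, with a log2 difference of -3.22 (SE 0.31, adjusted p = 9.69e-09). The values rest on 47 and 45 fragments. The line with the most, IL-2680, had 28.005 ± 3.17 FPKM (SD, n = 2). Ube2l6, which conjugates the interferon-induced modifier Isg15, had 15.7 and 18.9 FPKM against 22.4 to 67.2, a log2 difference of -1.18 (SE 0.18). Tef, a clock-controlled transcription factor, had 6.06 and 6.87 FPKM against 7.66 to 64.7. Ttc39b had 2.15 and 1.88 FPKM against 2.53 to 9.91, and Gnl3, a nucleolar GTPase, 6.33 and 5.71 against 7.08 to 29.1. C430014B12Rik had 0 and 0.05 FPKM and was at 0.41 or more in every other mouse. It overlaps Col4a3, a protein coding gene on the other strand, over 30132 bases. Mrpl48-ps, a pseudogene, was listed at 0 in both IL-72 mice and at 0.05 to 3.82 in the others. The other genes below were Ltbp1, Snapc5, Mak16, Ccdc68, 3110001I22Rik, Klhl21, ENSMUSG00000093483, Tsg101 and Yrdc, the last with 6.27 and 6.30 FPKM against at least 6.32.

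Besides the stretch on chromosome 4, 3 stretches had at least 3 members whose starts followed within 1 Mb. On chromosome 10, between 80065627 and 81053590, 6 of 40 genes tested were above the range. They were Scamp4, 3110056O03Rik, Tjp3, Hmg20b, F630110N24Rik and Tle2. Tjp3, a protein of tight junctions, led them with 11.8 and 11.1 FPKM against 0.70 to 9.41, and Hmg20b was just outside with 13.1 and 11.4 against up to 11.3. On chromosome 17, between 34784091 and 35810684 in the major histocompatibility region, 4 of 50 genes were above. They were Atf6b, Rdbp, Cfb and Gtf2h4, with log2 differences of 0.48 to 0.70. Gm20547 overlaps Cfb over 6107 bases and was at 0 and 0.34 FPKM in IL-72 against a median of 4.40, so fragments of the pair may have been divided differently. On chromosome 12, Inf2 and the annotated features AC073553.1 and AC073553.3 were above, the last 2 on fewer than 4 fragments in each mouse.

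The composition of the genes above the range was tilted towards GC. Their median exon GC content was 55.6%, against 49.6% of all genes tested, and 64 of the 102 were above the upper quartile of 54.2%. The genes below had a median of 47.0%. The libraries showed a tilt of the same direction over all genes. The level of GC-rich genes minus that of GC-poor genes, each relative to the middle of the lines (the 3 highest against the 3 lowest of 20 classes of GC), was 0.17 and 0.21 on the log2 scale in the IL-72 mice, against -0.48 to 1.14 in the others with a median of -0.02. By line mean only IL-2146 was higher. After each mouse was centred within GC classes, 86 genes were above the range and 33 below, of which 63 and 14 were members before. Galt, Ppard, Il11ra1, Dctn3, Psen2, Bhmt, Npr2, Ube2l6 and Tef remained outside, and 2810432D09Rik, Cfb, Hsd3b7, Col18a1 and Tk1 did not.

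**Figure D4:**
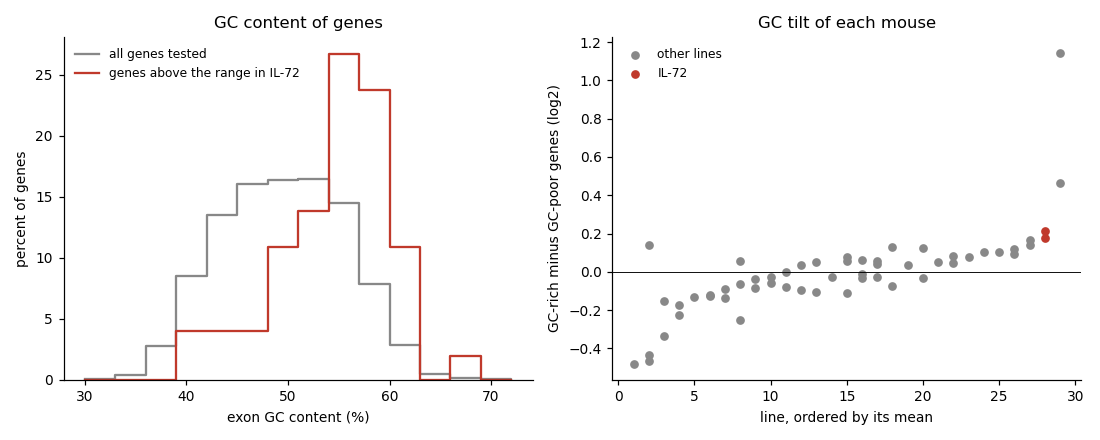
Left, share of genes by exon GC content for all genes tested (grey) and the genes above the range in IL-72 (red), whose medians are 49.6% and 55.6%. Right, GC-rich minus GC-poor genes (log2) of each mouse with lines ordered by their mean, where the IL-72 mice (red) lie at 0.17 and 0.21.

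The second comparison asked how far gene groups of liver function differed in IL-72 when only the spread between line mates was the error. With edgeR, 1832 of 16140 genes were higher (11.4%) and 890 lower (5.51%) than the mean of the other lines at an adjusted p under 0.05. DESeq2 called 10.4% of its genes higher and 7.33% lower. The test asks whether these 2 mice differ from the average line beyond the spread between line mates. The counts of each list below are therefore set beside 11.4% and 5.51%, and the median of all genes was 0.01. Unlike the members above, genes of these lists mostly lay within the range of the other mice. Most counts also fell by over 1.5 times when either IL-72 mouse was left out, which leaves the line with a single mouse. With lines as the unit, Ppard alone of the genes in these lists passed.

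Genes of cholesterol synthesis were higher as a group. Of 23 tested, 16 were higher and 0 lower, with a median log2 difference of 0.76, and 22 of 23 were positive. Mvk, mevalonate kinase, had 24.1 and 36.5 FPKM against a range of 6.12 to 29.8 in the others. Mvd, which makes isopentenyl diphosphate, had 25.5 and 39.3 FPKM against a median of 12.4, a log2 difference of 1.51 (SE 0.34, adjusted p = 0.00214). Srebf2, the transcription factor of the pathway, had 12.2 and 14.1 FPKM against a median of 8.25 (log2 difference 0.67, adjusted p = 0.000425). In each of these the second mouse was the higher. Without it, 1 of the 23 genes passed, and without the first mouse 11 did, with medians of 0.48 and 1.00. The promoter of Mvk holds 5 CCAAT boxes and 2 GC boxes.
Mvk, chr5:114444019-114444318 (+): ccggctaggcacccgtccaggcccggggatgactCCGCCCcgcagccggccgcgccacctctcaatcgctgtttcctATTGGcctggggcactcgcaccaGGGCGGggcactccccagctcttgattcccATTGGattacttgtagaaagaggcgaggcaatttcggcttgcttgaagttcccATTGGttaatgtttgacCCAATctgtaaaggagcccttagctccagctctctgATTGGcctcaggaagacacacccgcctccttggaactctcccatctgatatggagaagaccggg
All 14 genes of the list with a promoter in the table hold a CCAAT box, against 41.1% of the 27025 genes there, tested here or not.

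Lipid genes beyond sterols went both ways. Of 33 lipogenesis and lipid droplet genes, 7 were higher and 2 lower (median 0.15). Fasn, fatty acid synthase, had 120.3 and 144.6 FPKM against a median of 63.2 (log2 difference 1.16, adjusted p = 0.0122), and Srebf1, its regulator, 69.5 and 59.0 against 32.5. Lpin1 and Lpin2, phosphatidate phosphatases, were lower by log2 differences of -1.68 and -1.03. Of 28 genes of fatty acid oxidation and ketogenesis, 6 were lower and 2 higher (median -0.28). Cpt1a, which brings fatty acids into mitochondria, had 42.2 and 47.5 FPKM against a median of 75.7, and Angptl4, an inhibitor of lipoprotein lipase, 10.2 and 13.03 against 37.8. IL-72 had the lowest line mean for both. Pdk4, a kinase that blocks pyruvate oxidation, was higher, with 6.59 and 5.16 FPKM against a median of 1.44. Without the first mouse 0 genes of fatty acid oxidation passed and without the second 3 did, all lower. Of the lipogenesis genes, 1 and 2 passed, all higher.

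Acute phase genes were also higher, with a wide gap between the mice. Of 24 tested, 14 were higher and 0 lower, with a median log2 difference of 0.90. Saa1, a serum amyloid A, had 1996 FPKM in the first mouse and 7733 in the second, against a median of 184 in the others. Lcn2, lipocalin 2, had 54.3 and 516 FPKM against a median of 6.18, and Orm2, an orosomucoid, 139.3 and 596 against 16.1. The second mouse was the higher in all 3, by several-fold. Hp, haptoglobin, had 3895 and 6753 FPKM against 1625, a log2 difference of 1.57 (SE 0.28, adjusted p = 0.000162). The ranges of the other mice reached far higher, up to 38298 FPKM for Saa1. Without the second mouse only 1 of the 24 genes passed, and without the first 10 did, with medians of 0.62 and 1.02. Of 45 complement and coagulation genes, 8 were higher and 1 lower. Hc, complement component 5, had 206 and 229 FPKM against a median of 115.0. Of 34 interferon-stimulated genes 3 were higher and 0 lower, and of 30 MHC genes 9 were higher and 0 lower although the median of that list was -0.08. Without the first mouse 4 MHC, 3 complement and coagulation and 0 interferon-stimulated genes passed, and without the second 0, 2 and 0 did. DESeq2 called 8 MHC genes higher and 2 lower. H2-K1, a class I heavy chain, had 618 and 663 FPKM against a median of 322. MHC genes are alike in sequence and differ among founders, so their values are uncertain.

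Clock genes differed strongly in both directions. The clock pairs the activators Arntl and Clock or Npas2 with repressors of the Per, Cry and Nr1d families. Of 21 genes, 4 were higher and 10 lower, with a median of -0.83. Arntl had 8.32 and 7.55 FPKM against a median of 1.76 and a highest value of 8.39, and Npas2 1.60 and 1.25 against a median of 0.13. IL-72 had the highest line mean of both. Dbp, an output transcription factor, had 0.50 and 1.58 FPKM against a median of 27.9, a log2 difference of -5.10 (SE 0.88, adjusted p = 0.00013). Per1 had 0.23 and 0.30 FPKM against 3.51, and Per3 0.23 and 0.29 against 1.56. Nr1d1 had 12.4 and 11.6 FPKM against 26.1. The count was 2 higher and 4 lower without the first mouse, and 2 higher and 5 lower without the second. Since the hour of dissection is not in the labels, a difference of line and of hour cannot be told apart here. Tef, the list's member of the genes below the range, has an E-box in each of its 2 promoters, the first shown here.
Tef, chr15:81802423-81802722 (+): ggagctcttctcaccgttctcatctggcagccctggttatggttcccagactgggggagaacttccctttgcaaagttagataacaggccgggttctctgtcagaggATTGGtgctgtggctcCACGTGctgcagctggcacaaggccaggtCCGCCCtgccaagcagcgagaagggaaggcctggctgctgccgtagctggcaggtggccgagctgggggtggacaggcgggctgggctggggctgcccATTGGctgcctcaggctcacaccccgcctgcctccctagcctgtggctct
Of 16 clock genes with a promoter, 4 hold an E-box (25.0%), against 8.09% of the 27025 genes with a promoter, tested here or not.

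Of 31 immediate early and heat shock genes, 8 were lower and 2 higher (median -0.69). Hspa8, a constitutive chaperone, had 96.3 and 111.3 FPKM against a median of 239, and Hspa1b, an inducible one, 1.94 and 4.06 against 12.0. Dnajb1, their co-chaperone, had 4.27 and 5.90 against 11.1. The 2 higher genes, Pdia4 and Sdf2l1, act in folding in the endoplasmic reticulum. Without the second mouse 2 of the list passed, and without the first 0 did, while the medians were -0.65 and -0.92.

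**Figure D5:**
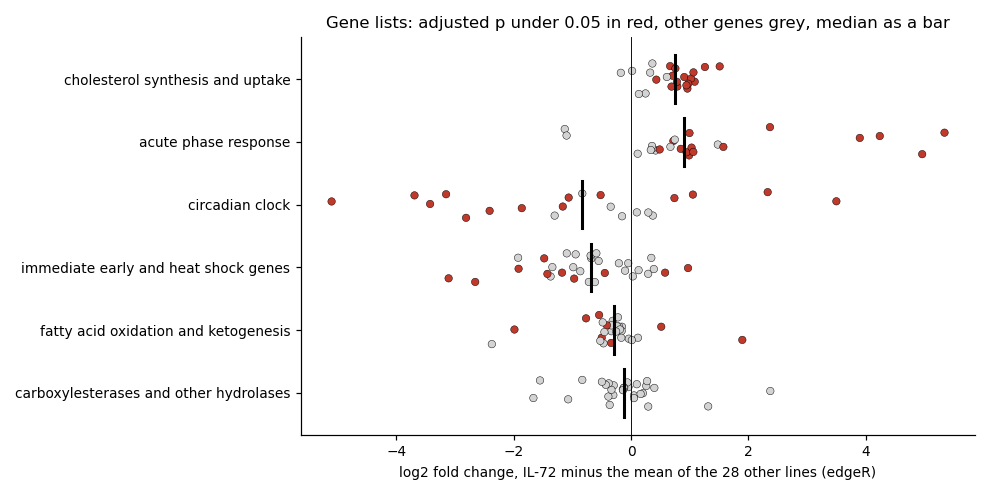
Log2 fold change (edgeR) of each gene in 6 lists, IL-72 minus the mean of the 28 other lines, with genes of adjusted p under 0.05 in red and list medians as bars. Cholesterol synthesis and acute phase genes sit to the right of 0, clock and heat shock genes mostly to the left, and 0 carboxylesterases or hydrolases passed with edgeR (2 lower with DESeq2).

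Drug disposition genes, the subject of the study, had more lower than higher calls in several classes. Of 52 cytochromes P450 of xenobiotic metabolism, 3 were higher and 5 lower (median -0.13) with edgeR. DESeq2 called 15 of 51 lower and 3 higher, and edgeR without lines IL-1052 and IL-2750 called 9 lower and 4 higher. Cyp2c44 had 14.0 and 16.3 FPKM against a median of 95.2, a log2 difference of -2.22 (SE 0.22, adjusted p = 1.91e-08). Cyp2a12 had 69.1 and 75.3 FPKM against a median of 336 and a lowest value of 69.8, and Cyp2a5 4.17 and 2.50 against a median of 145.4. Cyp2b10, a target of the receptor CAR, was higher, with 20.01 and 24.5 FPKM against 6.81. Of 42 dehydrogenases, reductases and monooxygenases, 9 were lower (21.4%) and 2 higher. Akr1c19, an aldo-keto reductase already known from earlier work on these data to be lowest in IL-72, had 7.65 and 5.86 FPKM. It was named in part for that, and 1 other mouse had 7.55 FPKM. Of 31 glucuronosyl- and sulfotransferases 6 were lower (19.4%, median -0.48) and 2 higher, and of 23 glutathione transferases 4 were lower (17.4%) and 1 higher. Without the first mouse the lower counts of P450, dehydrogenase, glucuronosyl- and sulfotransferase and glutathione transferase genes were 2, 4, 3 and 1, and without the second 3, 3, 3 and 2. Ugt2b37 differed between the mice, with 1.39 and 24.5 FPKM. Of 33 transporters 4 were lower and 3 higher, of 16 methyl-, acetyl- and amino acid transferases 1 lower and 1 higher, and of 29 carboxylesterases and other hydrolases 0 passed with edgeR, where 2 higher and 6 lower had an unadjusted p under 0.05. DESeq2 called 2 of 28 lower, and 4 of 28 were lower with edgeR without lines IL-1052 and IL-2750.

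Secreted liver proteins held the widest contrasts. Of 40 major urinary proteins and serpins, 15 were higher and 5 lower (13 and 2 without the first mouse, 8 and 1 without the second). Mup13 had 3680 and 4039 FPKM against a median of 5.93, although other lines reached 18064, and Mup20, the pheromone darcin, had 3.59 and 3.74 FPKM against a median of 1273. Serpina11 had 237 and 252 FPKM against a median of 68.8, and its lower mouse was within the range of the others. Mup genes are nearly identical copies, and fragments shared out between them make single values uncertain. Of 21 iron and metal genes 5 were higher and 1 lower. Hfe2, the hemojuvelin that controls hepcidin, had 35.3 and 35.2 FPKM against a median of 19.4. Of the 13 mitochondrially encoded genes 0 passed with edgeR or DESeq2, and 0 had an unadjusted edgeR p under 0.05. Of 18 urea cycle and periportal genes 3 were higher and 3 lower, and of 19 pericentral genes 2 lower and 0 higher, and 0 genes of either list passed without the first or without the second mouse. The remaining lists had 4 higher and 1 lower of 23 fatty acid and sterol P450 genes (17.4% and 4.35%), 5 and 2 of 24 apolipoprotein genes (20.8% and 8.33%), 1 and 1 of 21 glucose genes, 2 and 2 of 28 growth hormone and sex-biased genes, and 1 and 0 of 19 NRF2 target genes. Of 17 genes with known founder null alleles, 2 were higher and 1, Nnt, lower, with 12.5 and 11.9 FPKM against a median of 27.4.

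Isoform ratios, the percent of a gene's expression assigned to an isoform, were compared under the same range rule. Of 47396 isoforms of 8245 genes, 68 lay above the range (0.143%) and 24 below (0.0506%). The other lines with 2 mice had 14 to 346 above and 5 to 252 below. Those of IL-72 fell in 84 genes, of which only 4 were also outside in total expression (Wbp1, Hsd3b7, Il11ra1 and Vezt). Of genes with at least 2 FPKM in every mouse, the largest gap was in Slco2b1, a hepatic uptake transporter, whose isoform ENSMUST00000145381 took 14.8% and 10.8% in IL-72 and at most 4.78% elsewhere. These values rest on 3440 and 2895 fragments of the gene. In Txlna, ENSMUST00000046425 took 35.1% and 35.8% against up to 31.7%, and in Aen, ENSMUST00000172017 took 15.4% and 16.8% against up to 11.8%. Mup14 and Clmn followed, with gaps of 2.77 and 2.73 percentage points. On the low side, ENSMUST00000154596 of Map1lc3a, the autophagy protein LC3, took 17.9% and 15.3% against at least 21.6%. ENSMUST00000170451 of Cast, calpastatin, was at 0% in both mice, where 3.26% was the lowest elsewhere. Upf3b, Elf2 and Urm1 had gaps of -3.32, -2.98 and -2.88 points.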

How the data were processed

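Liver RNA of 55 mice was sequenced by the authors after poly(A) selection with a stranded kit. Per the labels and the study's methods, the authors mapped read pairs to mm9 with an Ensembl annotation and estimated expression in RSEM (release 1.2.18). Each deposited expected count is an estimate of fragments, with those matching several places shared out. The deposited FPKM and TPM were scaled for transcript length and library size, and the isoform ratios are deposited in percent. Depth was 20.5 to 34.0 M fragments.

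Expected counts were rounded and fitted with edgeR 4.0.16 (TMM, its default filter, quasi-likelihood test, Benjamini-Hochberg adjustment, threshold 0.05) on 29 lines with 26 residual degrees of freedom. DESeq2 1.42.0 and limma 3.58.1 (R 4.3.3) and FPKM rules were alternatives. In an edgeR self-test on 15174 genes, 63 of 66 genes changed 4-fold, 38 of 67 changed 2-fold and 24 of 67 changed 1.5-fold were recovered. There were 13 false calls. Its counts were drawn from a common mean for all lines, so the false calls do not cover ordinary differences between lines. Python 3.11.15 was used. Members, lists and naming rules (the 15 largest separations per side, list genes outside the range, runs of 3 or more, the 4 smallest adjusted p per list, 5 isoforms per side) were chosen with earlier results of these data known. Akr1c19 was also named because earlier work on these data found it lowest in IL-72. Several other genes given with the lists were not chosen by these rules, among them Fasn, Srebf1, Saa1, Hp, Mvd, Per1, Hspa1b and Cyp2a5. The counts of named genes further on leave them out. The GC adjustment and list alternatives were added after seeing the data. Gene symbols were found for 37205 of 37620 identifiers. The p-values of edgeR rest on the spread between line mates, pooled over all lines. Those of limma on line means rest on the spread between lines. A few items are not reported here.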

Additional observations from a re-analysis of the deposited data

How the results depend on the processing

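The count of genes above and below the range (102 and 17) was 5 and 1 with a gap of 1.5 times, and 220 and 110 against the range of the other line means. Requiring a single IL-72 mouse gave 187 to 224 above and 61 to 87 below. Dividing FPKM by TMM factors gave 42 below, leaving out IL-2156 gave 30, and the GC adjustment, chosen after seeing the data, 33. Leaving out IL-2156 gave 137 above, and leaving out each other line in turn 102 to 123. TPM, other expression minimums and leaving out IL-1052 and IL-2750 stayed within 1.5 times. The edgeR counts (1832 higher, 890 lower) fell to 5 and 3 with lines as the unit and to 20 and 15 for 2 mice against 53. Leaving out an IL-72 mouse gave 586 to 711 higher and 186 to 230 lower, where the lone mouse is assumed to vary like line mates of other lines. DESeq2 called 1610 higher and 1138 lower, so that 58.6% of calls were higher against 67.3%. Isoforms above fell from 68 to 43 with 2 FPKM in every mouse, and a 5-point gap left 7 above and 0 below. A single mouse gave 775 to 1166 isoforms above and 223 to 284 below. Of 137 named genes that passed, 134 held with DESeq2, 136 with RLE factors, 90 and 80 without the first and second mouse and 5 with lines as the unit. The log2 difference of Ugt2b37 (2.81) reversed to -0.46 without the second mouse and was 3.73 without the first. The causes were not tested. Mice of different lines are separate animals, so the design holds no pairs and no paired analysis applied. Low FPKM values limit Npr2, Npas2 and Per genes.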
